A study of Anas platyrhynchos with 6 samples.

Results

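The miRNAs miR-9 and miR-124 were followed in small RNA of the duck duodenum. Of the 1568 miRNA names listed for each library, 38 were taken by their name alone, after the species prefix was dropped: every arm and copy of miR-9 (24 names) and of miR-124 (14 names). The libraries came from 3 samples of the cage rearing (CR) group, ducks moved into cages, and 3 samples of the traditional breeding (TB) group, which stayed on the floor (Anas platyrhynchos, Nonghu No. 2 ducks aged 90 days when selected, trial of 10 days). All ducks were reared on the floor before the trial and were given the same surroundings and amount of feed. The paper reports that the CR ducks nevertheless ate less and had a lower body weight gain than the TB ducks. No other treatment is given for either group. The labels do not say whether the libraries of a group came from separate ducks. The paper states that RNA was extracted from each duck and that each group was kept in replicates of several ducks. It does not say which ducks or replicates gave the libraries, so p-values measure only the spread between these samples. Whether cage rearing changes duodenal miRNAs is the question the comparison addresses.

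Both miRNAs are best known from the nervous system. miR-124 is the classic neuronal miRNA: it is abundant in differentiated neurons and lowers transcripts of other cell types, among them that of the splicing regulator PTBP1. miR-9 is made in neural progenitors and neurons, and in the mouse it represses the nuclear receptor Tlx and the neuronal repressor REST. The duodenal wall carries neurons and glia of its own, in plexuses between and beneath the muscle layers, so neuronal miRNAs can reach a library made from a piece of intestine.

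Values were given in RPM, reads of a name per 1000000 reads summed over all names of a library, and every value was a whole multiple of the value of 1 read. The recovered totals ran from 1500905 to 11395209 reads in CR and from 5708735 to 9339494 reads in TB, summed over names that can share reads. Accordingly, 1 read was worth 0.0878 RPM in CR replicate 1 but 0.666 RPM in CR replicate 2. CR replicate 2 and TB replicate 1, which had the fewest reads, stood apart from the other 4 libraries: across the 662 tested names (at least 10 reads in at least 3 libraries) their log2(RPM + 1) values correlated at 0.97 with each other and at 0.74 to 0.82 with the other 4, which correlated at 0.98 to 0.99 among themselves. The TMM scaling factors, an alternative to scaling by the total, were 2.96 in CR replicate 2 and 1.70 in TB replicate 1. In the other 4 libraries they were 0.531 to 0.773. Dividing RPM by these factors lowers CR replicate 2 and TB replicate 1 against the others, so their positions below are stated for RPM. The tissue was checked against marker miRNAs, using the most abundant name of each. The 8 epithelial markers (miR-192, miR-194, miR-215, miR-141, miR-429 and 3 of the miR-200 family) summed to 38722 to 137934 RPM in CR and 49794 to 186730 RPM in TB. In this sum the lowest library of each group was the one that stood apart, but the markers did not move together. In CR replicate 2 and TB replicate 1, miR-192, miR-194 and miR-215 were lowest, whereas miR-200b, miR-200c and miR-429 were highest. For miR-200a and miR-141 these libraries lay in neither position. The labels give intestinal epithelial cells as the cell type, yet the 4 smooth muscle markers, among them miR-143 and miR-145, summed to 92244 to 201260 RPM in CR and 119998 to 165695 RPM in TB. In RPM these markers split as well. miR-143 and miR-1 were lowest in CR replicate 2 and TB replicate 1 (254 and 269 RPM for miR-1). miR-145 and miR-133 were highest there (822 and 907 RPM for miR-133). The place of miR-145 and miR-133 depends on the scaling and need not hold with the TMM factors. Among the blood cell markers, which summed to 371 RPM or less in CR and 342 RPM or less in TB, miR-223 was at 0 in every library but CR replicate 3, where it had 1 read. The endothelial miR-126 had 639 to 1467 RPM in CR and 469 to 1243 RPM in TB, and the enteroendocrine pair miR-7 and miR-375 summed to 1445 to 7599 RPM in CR and 1853 to 4579 RPM in TB. Within this pair, miR-375 was highest in CR replicate 2 and TB replicate 1 (7310 and 3716 RPM). miR-7 was lowest there (289 and 862 RPM). The liver marker miR-122 had 3.16, 328 and 5.10 RPM in CR replicates 1 to 3 and 1.55 to 7.36 RPM in TB.

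In this tissue miR-9 was present at a moderate level and miR-124 was barely detected. The most abundant miR-9 row averaged 73.0 RPM over the 6 libraries, rank 195 among the 447 tested rows with distinct reads. No miR-124 name had more than 6 reads in any library. Reads were found under 33 of the 38 names, 19 of miR-9 and all 14 of miR-124, and the other 5, all miR-9 names, were at 0 throughout (dre-miR-9-7-3p, mdo-miR-9b-3p, oha-miR-9-2-5p, oni-miR-9b and rno-miR-9b-5p). Many names carried exactly the same reads in all 6 libraries. Counted once, these came to 18 distinct rows, 11 of miR-9 and 7 of miR-124.

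The miR-9 reads fell into an abundant set, a less abundant set and a remainder of a few reads. The abundant set held 7 names in 3 rows: dme-miR-9a-5p, sko-miR-9-5p and xtr-miR-9-5p with 3494 reads in all, aca-miR-9-5p and oha-miR-9-3p with 3493, and mmu-miR-9b-3p and rno-miR-9b-3p with 3486. These rows differed by at most 4 reads in any library. They are therefore described by the first, and the split of reads among them is uncertain. As 4 of the names end in 5p and 3 in 3p, the name does not say from which arm of the miR-9 hairpin these reads came. The less abundant set held dre-miR-9-4-3p and oha-miR-9-3-5p, again a 3p and a 5p name, with 389 reads, and gga-miR-9-3p with 369 reads, differing from it by at most 12 reads in a library. Averaged over the libraries, the abundant set was 9.81-fold above the less abundant one.

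dme-miR-9a-5p had 112, 86.6 and 50.9 RPM in CR replicates 1 to 3, against 44.1, 74.4 and 70.3 RPM in TB replicates 1 to 3. These values rest on 1274, 130 and 509 reads in CR and on 252, 695 and 634 reads in TB. The highest values were those of CR replicates 1 and 2 and the lowest that of TB replicate 1, but CR replicate 3 lay below TB replicates 2 and 3, so the groups overlapped. The mean was 83.1 ± 30.6 RPM in CR and 63.0 ± 16.4 RPM in TB (SD, n = 3 each), and the difference did not pass an exact permutation test (two-sided, p = 0.4), which cannot go below 0.1 with 3 libraries in each group. The log2 fold change, CR over TB on log2(RPM + 1), was 0.36 (standard error 0.62, limma, adjusted p = 0.999), with a 95% interval of -1.14 to 1.86 that leaves a difference in either direction within reach. Without CR replicate 1 it was 0.11 and without TB replicate 1 it was 0.13. Without both CR replicate 2 and TB replicate 1 it was 0.06; leaving out this pair was decided with the data in view. In such libraries from whole tissue, fewer cells of a type and less of the miRNA in each cell cannot be told apart.

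The difference in the less abundant set had the opposite sign. dre-miR-9-4-3p had 7.20, 3.33 and 6.30 RPM in CR, from 82, 5 and 63 reads, against 4.55, 9.10 and 14.2 RPM in TB, from 26, 85 and 128 reads. TB replicates 2 and 3 were above every CR library, whereas TB replicate 1 was below CR replicates 1 and 3. The mean was 5.61 ± 2.02 RPM in CR and 9.29 ± 4.83 RPM in TB (SD, n = 3 each), and the two-sided exact permutation test gave p = 0.3. The log2 fold change was -0.57 (standard error 0.65, 95% interval -2.15 to 1.01, limma, adjusted p = 0.999). It was -0.96 without TB replicate 1 and -0.23 without TB replicate 3. Without both CR replicate 2 and TB replicate 1 it was -0.68, and the unadjusted p from limma was 0.0751 (adjusted p = 0.975). The other row of this set, gga-miR-9-3p, had a log2 fold change of -0.54 (standard error 0.64).

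**Figure D1:**
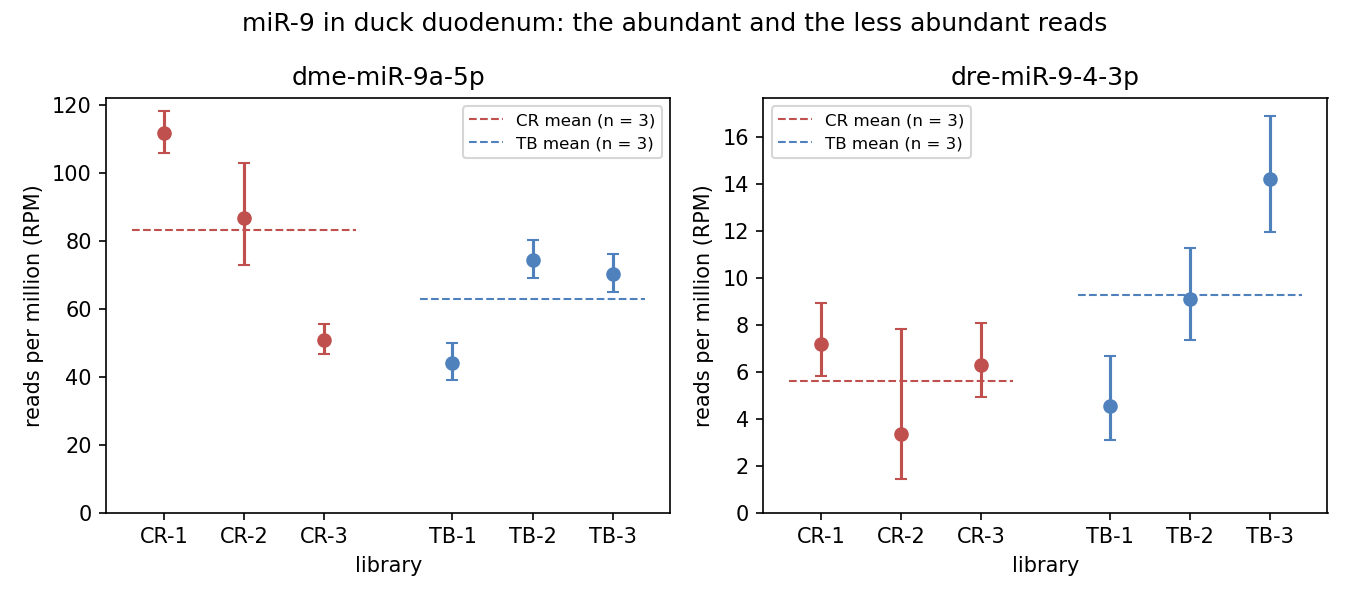
Level of dme-miR-9a-5p (left) and dre-miR-9-4-3p (right) in RPM for each library, CR left of TB. Bars are 95% Wilson intervals of the reads, and dashed lines are group means; the groups overlapped in both, with CR replicate 3 (50.9 RPM) below TB replicates 2 and 3 on the left and TB replicate 1 (4.55 RPM) below CR replicates 1 and 3 on the right.

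Of the 10 miR-9 names with enough reads to be tested, 0 had an adjusted p under 0.05 and 0 an unadjusted p under 0.05 in limma, and both counts were also 0 in edgeR and DESeq2. Over all 662 tested names the share called was 0% at an adjusted p under 0.05 and 0% at an unadjusted p under 0.05 in limma, while edgeR and DESeq2 each had 5 names at an unadjusted p under 0.05. In 0 of the 10 names did every CR library lie above every TB library, against 0.604% of the tested names, and in 0 did every CR library lie below, against 1.66%. The log2 fold change was above 0 for the 7 names of the abundant set and below 0 for the 3 of the less abundant set. Their median, 0.36, is the value of the near-identical rows of the abundant set and not a tendency over 10 separate members. Over all tested names the median was 0.05.

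Since both sets come from the same library, their balance does not depend on the total to which a library was scaled. This ratio was looked at after the values were seen. The less abundant reads (dre-miR-9-4-3p) made up 6.05%, 3.70% and 11.0% of the reads of dre-miR-9-4-3p and dme-miR-9a-5p together in CR replicates 1 to 3, against 9.35%, 10.9% and 16.8% in TB replicates 1 to 3. The lowest shares were those of CR replicates 1 and 2, and CR replicate 3 lay between TB replicates 2 and 3. The 95% Wilson interval was 4.90 to 7.44% in CR replicate 1 and 14.3 to 19.6% in TB replicate 3, the ends of which do not meet, and it was 1.59 to 8.38% in CR replicate 2, where 5 reads stand behind the share. Such intervals cover counting error only, since reads without molecular identifiers are not independent molecules. The mean share was 6.92 ± 3.73% in CR and 12.3 ± 3.93% in TB (SD, n = 3 each), a difference of -5.43 percentage points that did not pass the test (exact permutation test, two-sided, p = 0.3). The difference shrank to -3.20 percentage points when TB replicate 3 was left out and widened to -7.47 when CR replicate 3 was.

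**Figure D2:**
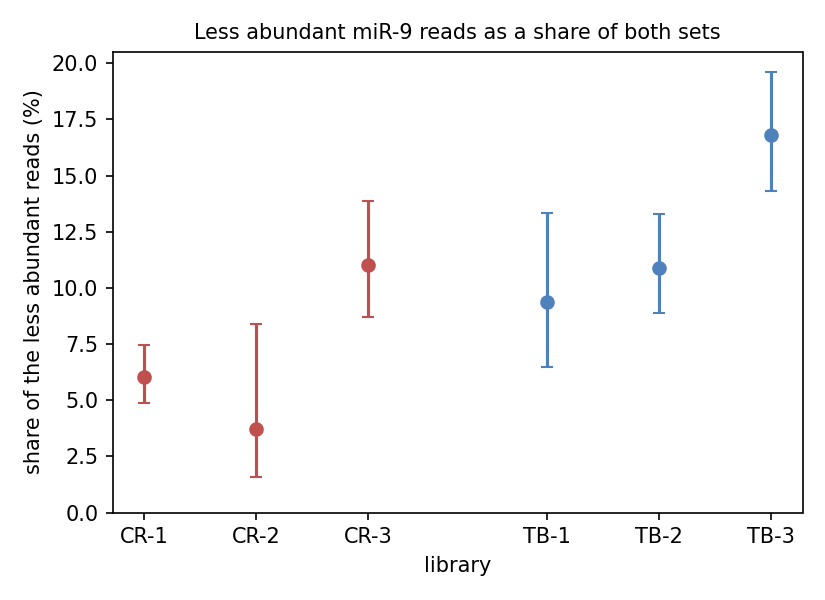
Reads of dre-miR-9-4-3p as a percentage of its reads and those of dme-miR-9a-5p, by library, CR left of TB, with 95% Wilson intervals. CR replicates 1 and 2 (6.05% and 3.70%) lie below all TB libraries and CR replicate 3 (11.0%) lies between TB replicates 2 and 3.

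The remaining 6 miR-9 rows were too sparse to be tested, with 1 to 29 reads in all. bma-miR-9-5p had 0.351, 0.666 and 1.10 RPM in CR, from 4, 1 and 11 reads, against 0.701, 0.642 and 0.333 RPM in TB, from 4, 6 and 3 reads. Its 29 reads are 0.830% of those of dme-miR-9a-5p, and CR replicate 3, which had the lowest dme-miR-9a-5p level of the CR group, had the most of bma-miR-9-5p. The row of aca-miR-9-1-3p, dre-miR-9-3p, mmu-miR-9-3p and oha-miR-9-4-5p had 8, 0 and 2 reads in CR and 2, 6 and 2 reads in TB, and bta-miR-9-3p had 7, 0 and 2 reads in CR and 1, 4 and 2 reads in TB. These 2 rows differed by at most 2 reads in a library. For these 3 rows the groups overlapped, and the ratio of pooled reads, CR over TB, was 1.29 for bma-miR-9-5p (exact 95% interval 0.583 to 2.92), 1.05 for aca-miR-9-1-3p (0.393 to 2.81) and 1.35 for bta-miR-9-3p (0.448 to 4.27). The reads of egr-miR-9-5p (3, in CR replicate 1), ssa-miR-9b-5p (3, in CR replicates 1 and 3) and xtr-miR-9b-5p (1, in TB replicate 3) were within the 3 reads that a count of 0 allows.

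miR-124 was at the limit of detection in every library. None of its 14 names reached the 10 reads in at least 3 libraries that the test required, and the 7 distinct rows had between 1 and 8 reads over all 6 libraries together. The highest value was 1.33 RPM, from 2 reads in CR replicate 2. In the deepest library, CR replicate 1, no row had more than 1 read. A count of 0 allows up to 0.263 RPM there, and up to 2.0 RPM in CR replicate 2.

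The name miR-124c-5p also stands, under a duck prefix, in the clustering plot of the miRNAs that the study selected on these same libraries. For that selection the paper states a minimum level in FPKM and a p-value threshold, and it reports miRNAs changed in both directions. Neither threshold was applied here, and values in RPM cannot be set directly against a level in FPKM. The match to gga-miR-124c-5p is by name without the prefix, and its difference between the groups is not independent evidence. It had 1, 0 and 1 reads in CR replicates 1 to 3, against 1, 1 and 2 reads in TB replicates 1 to 3. In RPM these are 0.0878, 0 and 0.10 in CR against 0.175, 0.107 and 0.222 in TB, so that the highest CR value was below the lowest TB value (p = 0.1 in the exact permutation test, two-sided, which is its minimum for groups of this size). In 4 of the 5 libraries with a value above 0 that value was a single read, and the order of these 4 in RPM, TB replicate 1, TB replicate 2, CR replicate 3 and CR replicate 1, was that of their read totals from the lowest to the highest. In CR replicate 2 a single read would have stood at 0.666 RPM, above all TB libraries. At the pooled TB rate of 0.166 RPM, 0.250 reads would fall to CR replicate 2, 1.89 to CR replicate 1 and 1.66 to CR replicate 3. The pooled reads, 2 in CR and 4 in TB, give a ratio of 0.526 with an exact 95% interval of 0.0475 to 3.67. A difference between the groups was therefore not detectable at this depth. In the fit without a filter on low values its log2 fold change was -0.14 (standard error 0.10, limma, adjusted p = 0.998), a scale on which the pseudocount of 1 exceeds every value of this miRNA.

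One further row, prd-miR-124-3p, also had every CR library below every TB library, at 0.0878, 0 and 0.10 RPM in CR and 0.175, 0.107 and 0.111 RPM in TB. It differs from gga-miR-124c-5p by a single read, in TB replicate 3, and had exactly 1 read in each library except CR replicate 2, where it had 0. With both, 2 of the 33 names with reads (6.06%) showed this order, against 1.43% of all 1470 names with reads in any library. Both rest on few reads, 6 and 5, and whether they share them was not tested.

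The other miR-124 rows overlapped between the groups. efu-miR-124 and mmu-miR-124-3p shared a row of 1, 0 and 2 reads in CR and 1, 1 and 2 reads in TB. aae-miR-124 and dme-miR-124-3p had 1, 0 and 1 reads in CR and 1, 0 and 1 reads in TB. Together with gga-miR-124c-5p and prd-miR-124-3p, these rows had reads in CR replicates 1 and 3 and were at 0 in CR replicate 2. The row of mmu-miR-124-5p, ola-miR-124-5p and tgu-miR-124-5p did the opposite: it had 2 reads in CR replicate 2 and 6 reads in TB replicate 1, and was at 0 in the other 4 libraries. These are 1.33 RPM (95% Wilson interval 0.365 to 4.86) and 1.05 RPM (0.482 to 2.29). In the other 4 libraries the upper ends of the same interval were 0.337 to 0.426 RPM, so that CR replicate 2 overlaps CR replicate 3, TB replicate 2 and TB replicate 3, while TB replicate 1 lies above all 4. The libraries with these reads are the same ones that stood apart across all miRNAs, and the part of that in this row was not tested. ccr-miR-124a and gga-miR-124c-3p, with 2 reads, and odi-miR-124a, sme-miR-124a-3p and sme-miR-124b-3p, with 1 read, had their reads in TB replicate 1 alone.

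**Figure D3:**
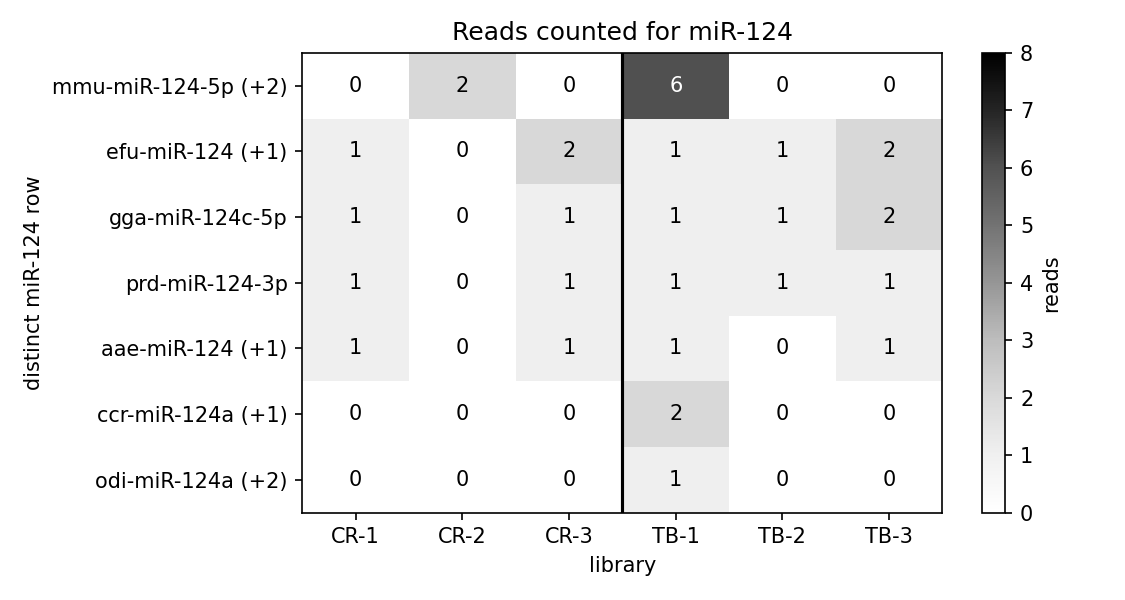
Reads counted for each distinct miR-124 row (the number of further names with the same reads in brackets) in each library, CR left of the line and TB right of it. No cell exceeds 6 reads, gga-miR-124c-5p has 0 to 2 reads in every library, and the reads of mmu-miR-124-5p lie in CR replicate 2 and TB replicate 1.

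In RPM, the position of the libraries that stood apart also differed within miR-9. In the 3 rows of the abundant set, CR replicate 2 and TB replicate 1 lay neither both above nor both below the other 4 libraries, at 86.6 and 44.1 RPM for dme-miR-9a-5p against 50.9 to 112 RPM in the others. In the 2 rows of the less abundant set they were the lowest: dre-miR-9-4-3p had 3.33 and 4.55 RPM there, the rest lying at 6.30 to 14.2 RPM. Of the 447 distinct tested rows, they lay both above the others in 256 (57.3%), both below in 96 (21.5%) and in neither position in 95 (21.3%). This is a description of the libraries, since they were singled out on these data. The positions also depend on the scaling. TMM factors of 2.96 (CR replicate 2) and 1.70 (TB replicate 1) would lower both libraries against the others. With them, the abundant miR-9 set need not differ from the less abundant one in this position.

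For comparison, 12 other miRNAs known from neurons or glia were followed, under 95 names of which 93 had reads and 41 were tested. In limma 0 of the 41 names had an adjusted p under 0.05 and 0 had an unadjusted p under 0.05; edgeR and DESeq2 likewise had 0 at either. The log2 fold change was above 0 in 22 and below 0 in 19, with a median of 0.21, beside 0.05 over all tested names. Without both CR replicate 2 and TB replicate 1 the medians were -0.0019 and -0.11. Several of these names repeat the same reads. Counted once, the 25 distinct rows had a median of 0.28, beside 0.05 over all distinct tested rows. Without the pair these were 0.06 and -0.11, so the sign of the median depends on how repeated rows are counted. The row taken for each of the 12 was that with the most reads over all libraries. The 12 include miR-138 and miR-383, of which no name had enough reads to be tested. Shares of the 12 are therefore set beside a background of tested rows only. In RPM, all 12 put CR replicate 2 and TB replicate 1 on the same side of the other 4 libraries, for 5 of them on 0 to 4 reads in CR replicate 2 that do not settle the order. Of all 447 distinct tested rows, 21.3% lay on neither side.

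In 12 of the 25 distinct tested rows of this list CR replicate 2 and TB replicate 1 lay both above the others, and in 10 both below. By miRNA, in 7 of the 12 (58.3%), CR replicate 2 and TB replicate 1 had the highest RPM values, near the 57.3% of all distinct tested rows. These counts are for RPM and depend on the scaling, since the TMM factors would lower both libraries against the others. miR-128 (mmu-miR-128-3p), a miRNA enriched in brain, had 370, 4836 and 156 RPM in CR, against 2955, 264 and 201 RPM in TB. miR-129 (mmu-miR-129-5p) had 53.5, 963 and 24.8 RPM in CR, against 394, 42.4 and 31.5 RPM in TB. miR-132 and miR-212 come from a shared locus that responds to the transcription factor CREB in neurons, and the most abundant row under each name showed the same pattern. However, aca-miR-212-5p had the same limma fit as gga-miR-132c-3p, a miR-132 name (log2 fold change 0.27, standard error 1.69). Its name therefore does not say which of the 2 miRNAs its reads came from. Another miR-212 name, fru-miR-212, had -0.57 (standard error 0.51). gga-miR-132b-3p had 97.4, 436 and 58.0 RPM in CR, against 202, 75.1 and 63.3 RPM in TB, and aca-miR-212-5p had 2.54, 65.3 and 0.700 RPM in CR, against 31.5, 2.14 and 1.22 RPM in TB. miR-383, miR-338 and miR-138 followed at means under 2 RPM. In CR replicate 2 these rest on 3, 4 and 1 reads, so that its place in the order is not established for them. The 1 read of mmu-miR-138-5p there gave 0.666 RPM, above the 0.614 RPM that 7 reads gave in CR replicate 1.

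In the other 5 (41.7%, against 21.5% of all distinct tested rows), the same libraries had the lowest RPM values. For all of these but miR-218, this rests on 0 or 1 reads in CR replicate 2. miR-218 (efu-miR-218a), which is enriched in motor neurons of the mouse, had 488, 60.0 and 811 RPM in CR, against 35.4, 547 and 641 RPM in TB. miR-153 (efu-miR-153), enriched in brain, had 11.3, 0 and 15.8 RPM in CR, against 0.350, 9.96 and 16.4 RPM in TB. miR-219 (tgu-miR-219b), a miRNA of oligodendrocyte differentiation, had 8.42, 0.666 and 7.70 RPM in CR, against 0.701, 13.4 and 13.3 RPM in TB. CR replicate 2 and TB replicate 1 had 0 and 2 reads of efu-miR-153, and 1 and 4 reads of tgu-miR-219b. miR-137 (chi-miR-137) and miR-135 (cpi-miR-135-5p) had lower levels, up to 2.72 and 1.49 RPM. Both had 0 reads in CR replicate 2 and 1 read in TB replicate 1, and as a 0 in CR replicate 2 allows up to 2.0 RPM, its place in the order is not established for them. The neuronal miRNAs thus did not move together between libraries, and most of the summed level of the list in CR replicate 2 (6367 RPM) and TB replicate 1 (3629 RPM) was miR-128; elsewhere the sum was 959 to 1078 RPM.

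**Figure D4:**
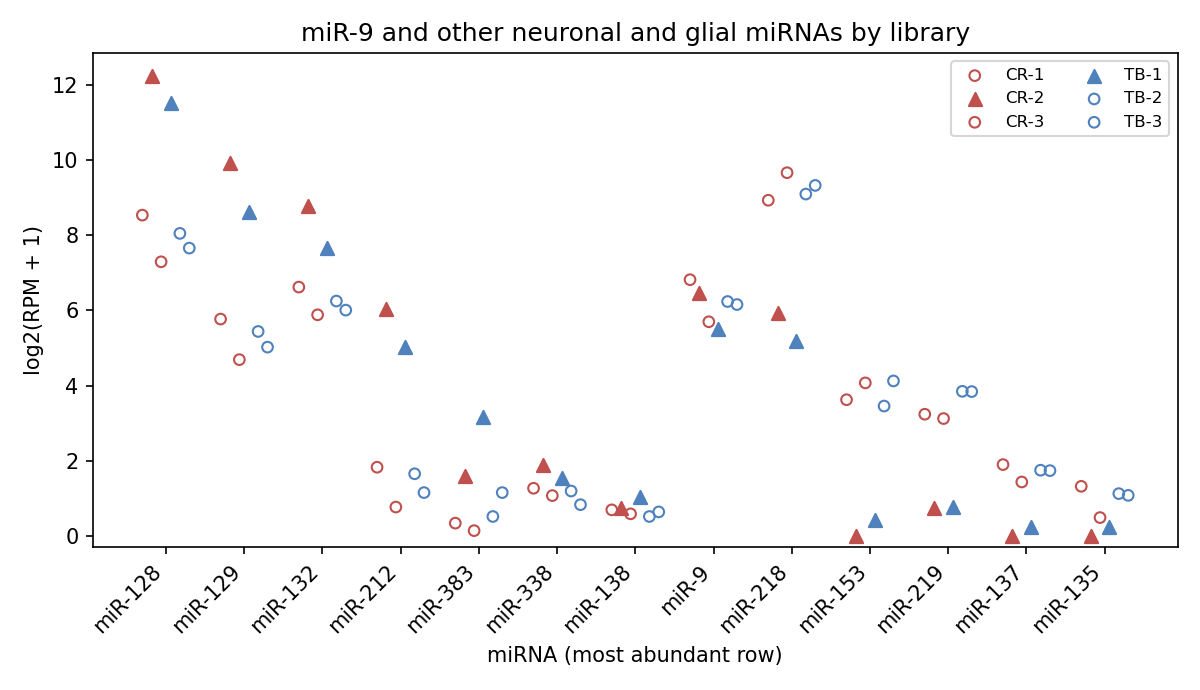
log2(RPM + 1) of the most abundant row of miR-9 and of 12 other neuronal and glial miRNAs in each library (CR red, TB blue, filled triangles for CR replicate 2 and TB replicate 1). By RPM the triangles are the highest in 7 miRNAs, from miR-128 to miR-138, and the lowest in 5, from miR-218 to miR-135, and are on neither side for miR-9. For miR-383, miR-338, miR-138, miR-137 and miR-135, CR replicate 2 has 0 to 4 reads, which do not settle its place. It also has only 0 reads for miR-153 and 1 read for miR-219.

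The tested rows outside miR-9 whose pattern over the 6 libraries was most like that of dme-miR-9a-5p, by Pearson's correlation of log2(RPM + 1), were tch-let-7a-5p (r = 0.85), gga-miR-2131-3p (r = 0.83) and dre-miR-141-3p (r = 0.80). The let-7 family is expressed in most differentiated tissues, and miR-141 is an epithelial miRNA of the miR-200 family. tch-let-7a-5p had 1.30 to 3.95 RPM in CR, against 1.23 to 3.32 RPM in TB, and gga-miR-2131-3p had 2.0 to 4.12 RPM in CR, against 1.23 to 3.88 RPM in TB. Both are near the floor in CR replicate 2. The 2.0 RPM of tch-let-7a-5p there is the value of 3 reads, and the 2.67 RPM of gga-miR-2131-3p that of 4 reads. dre-miR-141-3p had 788 to 970 RPM in CR, against 732 to 978 RPM in TB. These were the highest values among all tested rows outside miR-9 and rest on 6 libraries that share their scaling, so they describe likeness of pattern only.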

How the data were processed

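Small RNA of the duodenum was sequenced by the study in 3 CR and 3 TB samples (TruSeq small RNA kit, Illumina HiSeq). The authors deposited 1 table for each library, whose column headed TPM holds RPM, since each sums to 1000000; their methods name FPKM. The aligner, miRNA database release and genome build are not given in the sources used here. All values were within 0.01 reads of a whole multiple of 1 read, which gave back the reads.

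Tests had been planned for whichever unit the files held. limma 3.58.1 (trended eBayes) was run on log2(RPM + 1), on the names for which 3 or more libraries had 10 or more reads, with Benjamini-Hochberg adjustment over all tested names. The pseudocount of 1 understates changes of low miRNAs. The reads were also tested with DESeq2 1.42.0 and edgeR 4.0.16 (quasi-likelihood, TMM), beside other filters, pseudocounts and scalings, a replicate block and each library left out. Single rows were compared by exact permutation tests on RPM, and pooled reads by exact conditional intervals. Rows within 10% of each other's reads formed a set. The fits of limma, edgeR and DESeq2 were tried first on simulated reads, in which no library stood apart. The scripts ran under R 4.3.3, Python 3.11.15 and scipy 1.17.1.

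All members were named, with a list of neuronal and glial miRNAs (most abundant row of each with at least 10 reads) and the 3 rows most like dme-miR-9a-5p. The members and lists were chosen with earlier results of these data known.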

Additional observations from a re-analysis of the deposited data

How the results depend on the processing

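The signs of the log2 fold changes of the 5 tested miR-9 rows, above 0 in the abundant set and below 0 in the less abundant one, were the same under all 15 alternatives run, and none passed the threshold. With one replicate left out they ran from 0.11 to 0.67 for dme-miR-9a-5p, with the same 2 decimals for aca-miR-9-5p and mmu-miR-9b-3p, from -0.96 to -0.23 for dre-miR-9-4-3p and from -0.92 to -0.23 for gga-miR-9-3p. TMM scaling of the RPM values put the median log2 fold change over the 662 names at -0.11, in place of 0.05, and dme-miR-9a-5p to 0.17 and dre-miR-9-4-3p to -0.66. The number of names with an adjusted p under 0.05 was 0 under every alternative. That at an unadjusted p under 0.05, 0 in limma, was 5 with edgeR, 5 with DESeq2, 4 without a filter and 24 without both CR replicate 2 and TB replicate 1 (chosen after the data were seen), with none of miR-9 or miR-124 among them; the cause was not tested. Of the 38 names, 33 had at least 1 read, 27 at least 3 and 16, all of miR-9, at least 10. Differences of miR-9 and miR-124 rows with too few reads to test changed sign with single libraries left out in bma-miR-9-5p, aca-miR-9-1-3p, bta-miR-9-3p, mmu-miR-124-5p and aae-miR-124, and in no other such row. In gga-miR-124c-5p (-0.136 to -0.0742 RPM) and prd-miR-124-3p the sign could not change, since every CR value already lay below every TB value. The unchanged sign is therefore no sign of a stable difference. Summed over all distinct rows, which count shared reads several times, the levels were 352, 269 and 167 RPM in CR and 145, 243 and 239 RPM in TB, and with 1 row for each set 121, 91.9 and 59.3 RPM in CR and 52.2, 85.6 and 86.1 RPM in TB; the difference of the first sums was 53.4 RPM, and 8.85 to 101 RPM with one library left out. With the replicate number as a block, the log2 fold changes were the same, 0.36 for dme-miR-9a-5p and -0.57 for dre-miR-9-4-3p, with standard errors of 0.86 and 0.89, and no call changed. The labels give the numbers no meaning, so same-numbered libraries were not treated as pairs. Their deviations from the group means correlated at -0.80, -0.91 and 0.91 for numbers 1 to 3. CR replicate 2 and TB replicate 1, which stood apart, correlated at 0.93, so these values cannot show whether the numbers pair samples. Depth limits the miR-124 values, since no row reached 10 reads in all.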
